A study of Mus musculus with 8 samples.

Results

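Mitosis and G2/M genes are the 48 genes whose products carry a cell from the end of DNA synthesis through chromosome segregation to cytokinesis. They were selected by symbol, and all 48 were found among the 55421 gene rows of the expression table. RNA was sequenced from 8 libraries of primary mouse bone marrow derived macrophages (BMDMs), which are marrow cells differentiated to macrophages in culture, harvested on day 7. The libraries formed a Baf60a KO group of 4 and a WT group of 4. The series names C57 mice as the source. The gene deleted in KO, Smarcd1, encodes BAF60A, which belongs to the SWI/SNF family of chromatin remodellers. The sources used here do not say how the gene was deleted, in which cells, or whether each library came from its own animal or culture. All p-values therefore refer only to the variation among the 8 libraries, some of which may be technical.

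Entry into mitosis is driven by CDK1 bound to cyclin A or cyclin B, which the CDC25 phosphatases switch on. Kinases of the Aurora and Polo families then build the spindle, the kinetochore couples chromosomes to microtubules, and the spindle assembly checkpoint holds back the anaphase-promoting complex (APC/C) until all chromosomes are attached. Destruction of securin and cyclin B starts anaphase, after which the central spindle and a contractile ring divide the cell. Most of the genes are transcribed late in the cell cycle. B-MYB and FOXM1, together with the MuvB complex, activate them through a promoter element called the cell cycle genes homology region (CHR), and NF-Y through CCAAT boxes; the DREAM complex represses them through the CHR in resting cells. Macrophage precursors divide in response to the growth factor CSF-1 during culture, so cultures can hold dividing cells.

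The promoter sequences of a few members are shown because most of the members searched hold both elements, as do part of the other mitosis genes. The 40 members with a promoter window in the RefSeq table (build GRCm38.p6, 250 bases before to 50 bases after the gene start) were searched for the CHR, spelled TTTGAA on either strand or TTCGAA, and for CCAAT on either strand. Each printed stretch runs from 150 bases before the start to 30 bases after it, 5′ to 3′ on the strand of the gene, with CHR and CCAAT matches in capitals.
Spc25 (chr2:69206184-69206363, minus strand): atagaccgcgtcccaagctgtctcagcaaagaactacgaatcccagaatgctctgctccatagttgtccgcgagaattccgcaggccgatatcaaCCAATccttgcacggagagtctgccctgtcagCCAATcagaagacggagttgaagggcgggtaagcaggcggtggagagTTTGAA
Top2a (chr11:99024160-99024339, minus strand): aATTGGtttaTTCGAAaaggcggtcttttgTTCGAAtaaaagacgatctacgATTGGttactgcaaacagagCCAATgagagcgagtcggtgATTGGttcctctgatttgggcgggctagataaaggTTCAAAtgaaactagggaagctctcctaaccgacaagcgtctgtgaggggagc
Prc1 (chr7:80294301-80294480, plus strand): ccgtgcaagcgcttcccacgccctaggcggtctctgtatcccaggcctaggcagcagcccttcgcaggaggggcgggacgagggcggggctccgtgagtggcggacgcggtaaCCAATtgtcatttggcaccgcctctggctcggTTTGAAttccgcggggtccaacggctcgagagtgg
Cdc20 (chr4:118437314-118437493, minus strand): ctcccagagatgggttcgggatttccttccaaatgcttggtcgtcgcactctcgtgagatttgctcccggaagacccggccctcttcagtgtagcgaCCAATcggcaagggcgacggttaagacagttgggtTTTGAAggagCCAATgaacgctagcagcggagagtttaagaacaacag
Ccnb2 (chr9:70421525-70421704, minus strand): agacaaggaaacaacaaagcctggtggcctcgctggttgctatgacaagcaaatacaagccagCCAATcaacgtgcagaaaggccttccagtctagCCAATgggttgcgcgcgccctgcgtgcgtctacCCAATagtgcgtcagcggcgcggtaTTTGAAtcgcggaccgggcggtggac
Cdk1 (chr10:69352883-69353062, minus strand): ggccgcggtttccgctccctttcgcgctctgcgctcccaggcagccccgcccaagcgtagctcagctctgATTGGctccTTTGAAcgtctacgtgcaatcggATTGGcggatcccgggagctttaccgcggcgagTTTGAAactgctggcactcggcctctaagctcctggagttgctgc
Ccnb1 (chr13:100786457-100786636, minus strand): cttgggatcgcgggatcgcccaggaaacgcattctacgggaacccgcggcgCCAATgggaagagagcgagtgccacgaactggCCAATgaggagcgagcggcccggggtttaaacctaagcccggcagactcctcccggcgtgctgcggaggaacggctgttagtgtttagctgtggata
Spc25 is shown as the gene that passed the test, Top2a and Prc1 as genes among the 4 lowest adjusted p-values, and the others as genes of mitotic entry and exit. In the Spc25 stretch 2 CCAAT boxes are followed by 1 CHR, and the Ccnb2 stretch has 3 CCAAT boxes followed by 1 CHR. Ccnb1 has 2 CCAAT boxes and no CHR match in the same stretch.

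A CHR match was present in 32 of the 40 members with a window (80.0%), against 19.4% of the 27025 windows of all genes. A match within 50 bases of the start was present in 29 members (72.5%), against 5.29% of all windows. CCAAT was present in 30 members (75.0%), against 37.9% of all windows, and 2 or more copies in 19 members (47.5%), against 12.2%. The CCAAT shares were not particular to the members. In 67 windows of other mitosis genes they were 67.2% and 40.3%, and in 40 windows of S phase genes 62.5% and 42.5%. A CHR match was present in 58.2% of the former and 20.0% of the latter. Both elements were present in 28 members (70.0%), against 7.70% of all windows. Neither was present in 6 members (Birc5, Mad2l1, Mybl2, Nuf2, Nusap1 and Pttg1), against 50.3% of all windows. A CHR match and a CCAAT match shared bases in 1 member. The 8 members with no window were Aurkb, Ccna2, Cdc25c, Foxm1, Incenp, Kif20a, Smc4 and Tpx2. Such matches are a description of letters in a window and do not show binding.

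**Figure D1:**
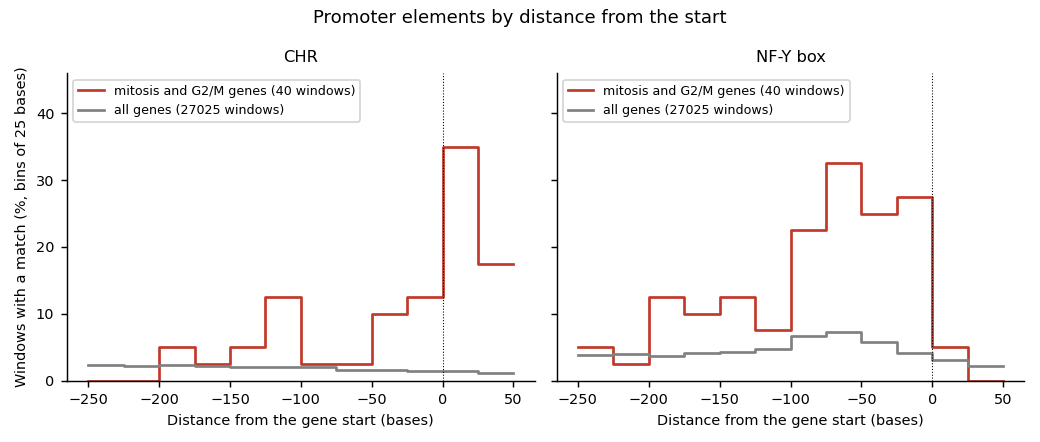
Share of promoter windows (y axis, %) with a match in each bin of 25 bases by distance from the gene start (x axis, bases), for the CHR (left) and the NF-Y box, CCAAT on either strand (right), in 40 mitosis and G2/M genes (red) and in 27025 windows of all genes (grey). The CHR of the mitosis and G2/M genes peaks at 35.0% of windows in the first bin after the start, where all windows are at 1.37%, and their NF-Y boxes lie mostly upstream, at 32.5% in the bin from 75 to 50 bases before the start against 7.28%.

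Values are TPM, the share of a library's transcripts that a gene takes after correction for transcript length, so levels can be compared between genes. The table keeps no read depth, and the precision of single values is thus unknown. Smarcd1 was at 10.79, 10.27, 10.85 and 9.91 TPM in Baf60a KO replicates 1 to 4, against 16.25, 14.29, 14.76 and 14.01 TPM in WT. It fell in KO (log2 fold change -0.47, SE 0.061, limma adjusted p = 0.00756); which exons were deleted is not given, so the remaining level is no check of the deletion. Processed pseudogenes held 7.48% to 8.38% of TPM in KO libraries, against 6.78% to 12.2% in WT libraries, with WT replicates 3 and 4 at 12.0% and 12.2%. The main axis of variation over all genes tested (first principal component, 30% of variance) split the WT libraries. WT replicates 1 and 2 were at 25.96 and 8.46 on it, and WT replicates 3 and 4 at -20.12 and -22.16. The KO libraries lay between, from -2.17 to 5.36. Of 15 macrophage markers listed, 14 were over 1 TPM in at least 4 libraries. The exception was Cx3cr1, at 0.24 to 0.46 TPM in KO and 0.26 to 0.30 TPM in WT. Lyz2 was at 1927 ± 110 TPM in KO and 3993 ± 248 in WT. C1qa, a chain of complement C1q, was at 336 ± 14.5 in KO and 212 ± 14.8 in WT (SD, n = 4 each).

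A single WT library stood apart for the mitosis genes. WT replicate 2 held the highest value of the 8 libraries for 36 of the 48 genes (75.0%), against 19.2% of the 13933 genes tested. The median deviation of the 48 genes from their own mean over all libraries, on the log2(TPM + 1) scale, was -0.07, -0.08, 0.00 and -0.07 in KO replicates 1 to 4 and 0.02, 0.20, -0.05 and 0.05 in WT replicates 1 to 4. The same measure over all genes tested was 0.03 in WT replicate 2. The log2 fold changes of the 48 genes are therefore summarized further below with and without this library, by their median and by how many were lower in KO. The other shares of the 48 genes, the medians by role, the group means of sums and the correlations all include WT replicate 2. The lowest value of the 8 was in a KO library for 37 of the 48 genes (77.1%), against 32.1% of all genes tested.

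**Figure D2:**
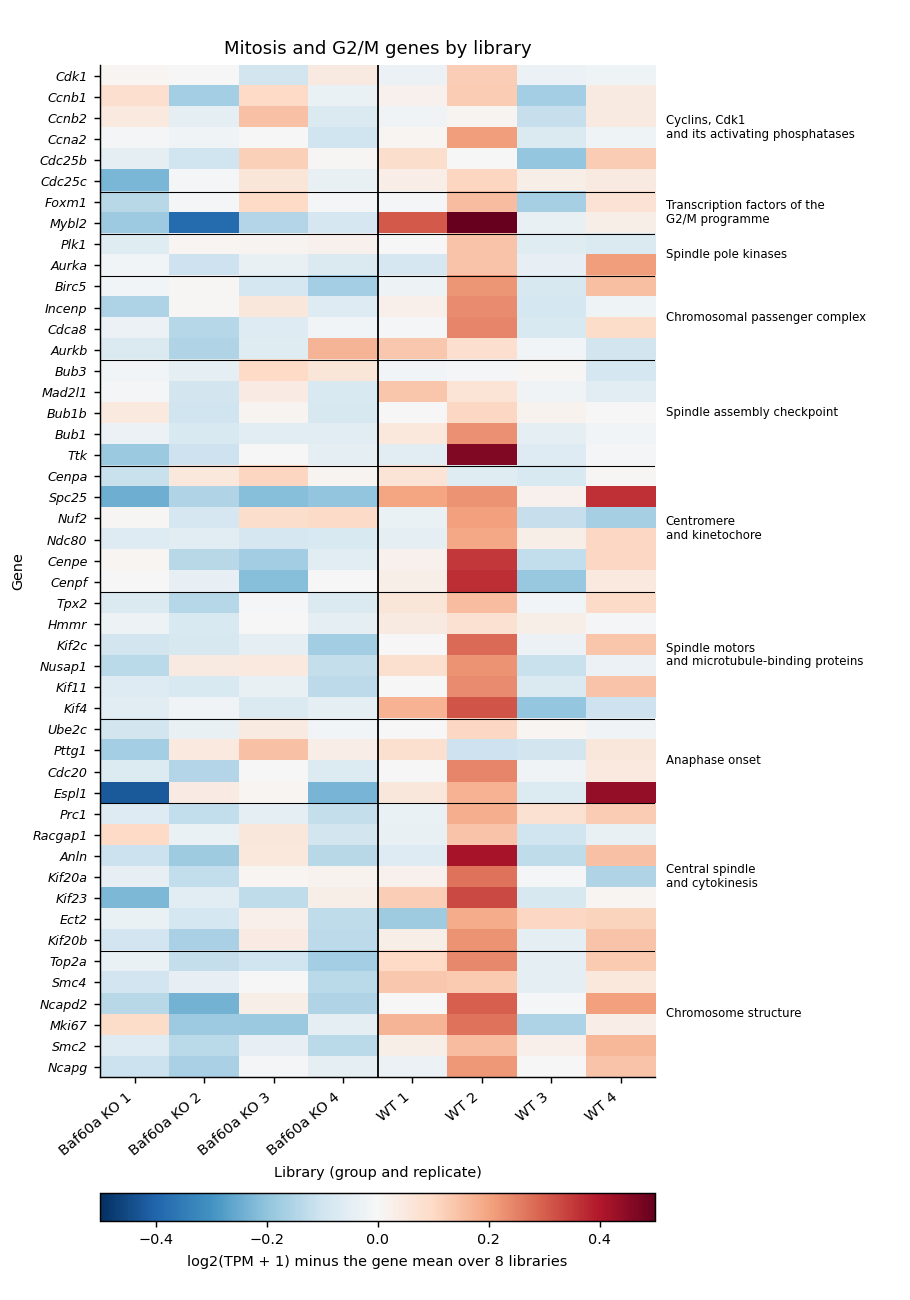
Deviation of each of the 48 genes (rows, by role) from its mean over the 8 libraries on the log2(TPM + 1) scale, in Baf60a KO replicates 1 to 4 (left of the line) and WT replicates 1 to 4 (right). The column of WT replicate 2 is the darkest red, with the highest value for 36 of the 48 genes, and the row of Spc25 changes colour at the line between the groups.

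The 48 genes were all expressed, with TPM between 3.10 and 96.1 in single libraries and a median level of 19.4 TPM. Genes were tested where TPM was over 1 in at least 4 libraries, and every member was over 1 TPM in all 8. By limma on log2(TPM + 1), with adjustment over all 13933 genes tested and a call at adjusted p under 0.05, 1 of the 48 fell in Baf60a KO (2.08%), 0 rose and 47 did not pass, which does not show that they were equal. Of all genes tested, 1.21% fell and 4.40% rose, and 5.61% were called in either direction, so the share of members that fell is close to that of all genes. The 1 call was Spc25, a subunit of the NDC80 kinetochore complex. At an unadjusted p under 0.05, 11 members were lower in KO (22.9%) and 0 were higher, against 6.42% and 15.9% of all genes tested. The KO libraries all lay below the WT libraries for 6 members (12.5%) and above them for 0, against 3.96% and 11.9% of all genes tested. Related lists described further below had similar shares. Of other mitosis genes 23.5% were lower at that unadjusted p and 16.0% had all KO libraries below WT. Of S phase genes these shares were 22.6% and 15.1%, while 4 were higher at that p.

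Small differences in the same direction were common among the 48 genes. The log2 fold change, KO minus WT, was below 0 for 42 of them, against 42.5% of all genes tested, and its median was -0.11, against 0.03 for all genes tested. Single values ran from -0.40 to 0.05. The summed level of the 48 genes was 1109, 1100, 1158 and 1115 TPM in KO replicates 1 to 4, against 1181, 1296, 1115 and 1197 TPM in WT. These sums overlap, since WT replicate 3 lies within the KO range. Without WT replicate 2 the median was -0.06 and 37 genes were below 0, and without WT replicates 3 and 4 it was -0.17 with 44 below 0. The values for all genes above come from the fit of all libraries and do not carry over to these fits. Over all genes tested the median deviation was lowest in WT replicates 3 and 4, at -0.07 and -0.03. The number of genes called also moved with the scaling of the libraries. Median-of-ratios scaling called 5 members lower (Spc25, Top2a, Tpx2, Smc2 and Prc1), quantile normalization 2 (Spc25 and Smc2), and rescaling over protein-coding genes 2 (Spc25 and Top2a). Over all genes, 613 rose and 169 fell by the unscaled TPM, whereas median-of-ratios scaling gave 516 rises and 404 falls.

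**Figure D3:**
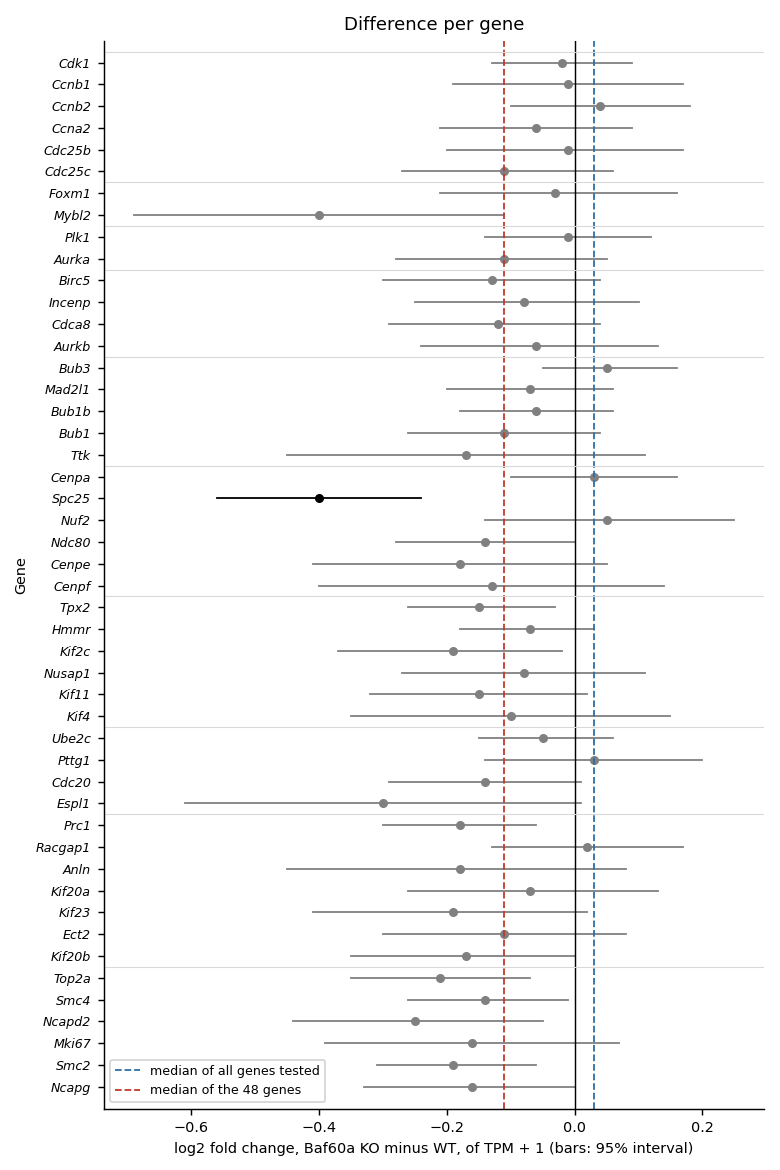
Log2 fold change, Baf60a KO minus WT, of log2(TPM + 1) for each of the 48 genes (rows, grouped by role), with the 95% interval as a bar. Spc25, in black, is the gene that passed the test (-0.40) and the others, in grey, lie between -0.40 for Mybl2 and 0.05 for Bub3 and Nuf2. The red dashes mark the median of the 48 genes (-0.11) and the blue dashes the median of all genes tested (0.03).

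Of the 6 cyclins, Cdk1 and its activating phosphatases, 0 passed the test, and their summed level was 196 ± 3.93 TPM in KO and 199 ± 11.2 TPM in WT (SD, n = 4 each). Cdk1, the kinase of mitotic entry, was the most abundant of the 48 genes. It was at 88.77, 87.97, 82.73 and 90.90 TPM in KO replicates 1 to 4, against 86.38, 96.10, 86.35 and 86.88 TPM in WT. Its groups overlapped, and the log2 fold change of -0.02 had a 95% interval of -0.13 to 0.09. Its partner Ccnb1, cyclin B1, was at 34.63, 28.90, 35.02 and 31.85 TPM in KO, against 33.11, 35.71, 28.88 and 33.65 TPM in WT. Here too the groups shared most of their range (log2 fold change -0.01, interval -0.19 to 0.17). Ccnb2, cyclin B2, was at 27.69, 25.80, 29.71 and 25.38 TPM in KO and 26.37, 26.99, 24.58 and 27.63 TPM in WT, with an interval of -0.10 to 0.18 for the log2 fold change. Ccna2, cyclin A2, averaged 25.9 ± 0.834 TPM in KO and 27.1 ± 2.49 TPM in WT. Cdc25b, the phosphatase that starts CDK1 activation, averaged 17.4 ± 1.21 TPM in KO and 17.6 ± 1.78 TPM in WT. Cdc25c, a further activator of CDK1, was the least abundant of the group, at 4.66, 5.58, 5.92 and 5.46 TPM in KO and 5.78, 6.13, 5.77 and 5.83 TPM in WT. Processed pseudogenes nearly identical to Ccnb1 were listed at up to 3.97 TPM, which leaves its level uncertain. The ratio of Ccnb1 to Cdk1 TPM was 0.33 to 0.42 in KO and 0.33 to 0.39 in WT.

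The 2 transcription factors of the programme differed in how their groups lay. Mybl2, which encodes B-MYB, was at 7.27, 6.18, 7.46 and 7.84 TPM in KO, against 10.61, 12.26, 8.14 and 8.56 TPM in WT. Every KO library was below every WT library, but WT replicates 1 and 2 were well above WT replicates 3 and 4, and the gene did not pass (log2 fold change -0.40, SE 0.13, limma adjusted p = 0.103). Without WT replicates 3 and 4 it was called (log2 fold change -0.60, limma adjusted p = 0.039). Foxm1 was at 12.85, 14.18, 15.32 and 14.15 TPM in KO and 14.15, 15.97, 12.57 and 15.01 TPM in WT, with overlapping groups and an interval of -0.21 to 0.16 for the log2 fold change.

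Neither kinase of the spindle poles passed. Plk1, the Polo-like kinase, was at 19.94, 21.00, 21.05 and 21.20 TPM in KO and 20.88, 23.13, 19.96 and 19.80 TPM in WT. Aurka, Aurora kinase A, was at 19.19, 17.96, 18.85 and 18.40 TPM in KO and 18.23, 21.53, 18.80 and 22.57 TPM in WT, where replicates 2 and 4 were the high ones. The chromosomal passenger complex, which corrects wrong attachments at the centromere, had 0 of 4 members called and a median log2 fold change of -0.10. Its most abundant member Birc5, survivin, was at 41.85, 42.41, 39.60 and 37.44 TPM in KO and 41.46, 49.33, 39.84 and 46.94 TPM in WT. Aurkb, the kinase of the complex, was at 18.24, 17.23, 18.36 and 21.72 TPM in KO and 21.22, 20.42, 19.02 and 17.94 TPM in WT. For both genes the groups overlapped. The scaffold Incenp averaged 32.8 ± 2.13 TPM in KO and 34.7 ± 3.58 TPM in WT, and Cdca8, borealin, 29.5 ± 1.17 TPM in KO and 32.4 ± 3.29 TPM in WT.

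Spindle assembly checkpoint genes (0 of 5 called) had a median log2 fold change of -0.07. Bub3, a WD-repeat protein of the checkpoint that is not restricted to mitosis, had a log2 fold change of 0.05. It was at 49.75, 48.69, 53.94 and 52.48 TPM in KO, against 49.80, 50.05, 50.49 and 47.21 TPM in WT, with overlapping groups (interval -0.05 to 0.16). Ttk, the MPS1 kinase, was low, at 4.36, 4.66, 5.10 and 4.89 TPM in KO and 4.86, 7.40, 4.83 and 5.04 TPM in WT, where replicate 2 alone was high. The other checkpoint members overlapped between the groups as well: the kinase Bub1 averaged 10.7 ± 0.148 TPM in KO and 11.7 ± 1.10 TPM in WT. The checkpoint protein Bub1b (BUBR1) averaged 15.02 ± 0.794 TPM in KO and 15.68 ± 0.593 TPM in WT. Mad2l1 (MAD2), which inhibits the APC/C activator CDC20, averaged 23.11 TPM in KO and 24.28 TPM in WT.

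The kinetochore group held the 1 called gene. Spc25 (chromosome 2, 69193895 to 69206194, build mm10) was at 22.43, 24.02, 22.94 and 23.22 TPM in KO replicates 1 to 4, against 30.82, 31.45, 27.16 and 34.72 TPM in WT. The KO libraries lay close together and all below the lowest WT library, which was replicate 3. Spc25 fell with a log2 fold change of -0.40 (SE 0.071, limma adjusted p = 0.0210, lower in 4 of 4 KO libraries than in any WT library), with a mean level of 23.15 ± 0.664 TPM in KO and 31.04 ± 3.10 TPM in WT. Its transcripts share no exon bases with another annotated gene, and no other transcript aligned to them over 200 bases or more at 95% identity. The call ended when any 1 KO library was left out, with adjusted p of 0.0614, 0.0532, 0.0634 and 0.0707 without KO replicates 1 to 4. It held when any 1 WT library was left out and without WT replicates 3 and 4 together (adjusted p from 0.0111 to 0.0470), and the log2 fold change stayed between -0.46 and -0.35 over the 8 fits that left out 1 library.

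The other subunits of the NDC80 complex, a rod of 4 proteins that binds microtubules, were not called. Nuf2 was at 13.81, 12.94, 14.70 and 14.78 TPM in KO and 13.42, 16.03, 12.62 and 12.14 TPM in WT, with overlapping groups (log2 fold change 0.05, interval -0.14 to 0.25). Ndc80 averaged 11.5 ± 0.119 TPM in KO and 12.8 ± 0.976 TPM in WT, with every KO library below every WT library (log2 fold change -0.14, limma adjusted p = 0.214). Spc24, the direct partner of SPC25 and not one of the 48, averaged 19.2 TPM in KO and 21.5 TPM in WT and did not pass (log2 fold change -0.15, limma adjusted p = 0.256). The ratio of Spc25 to Nuf2 TPM was 1.56 to 1.86 in KO and 1.96 to 2.86 in WT, that of Spc25 to Ndc80 was 1.94 to 2.06 in KO and 2.19 to 2.65 in WT, and that of Spc25 to Spc24, 1.11 to 1.41 in KO and 1.38 to 1.58 in WT. The first 2 ratios did not overlap between the groups and the last did. These ratios were computed after the values had been seen and were not tested. At the centromere, Cenpa, the histone H3 variant of centromeric nucleosomes, was at 60.02, 67.42, 70.11 and 65.60 TPM in KO and 68.28, 62.37, 61.62 and 65.23 TPM in WT. Cenpf, a large late-cycle kinetochore protein, was the least abundant of the 48, at 3.75, 3.61, 3.10 and 3.74 TPM in KO and 3.84, 5.14, 3.16 and 3.91 TPM in WT. The kinesin Cenpe averaged 7.26 ± 0.474 TPM in KO and 8.40 ± 1.33 TPM in WT. For these 3 genes the groups overlapped.

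**Figure D4:**
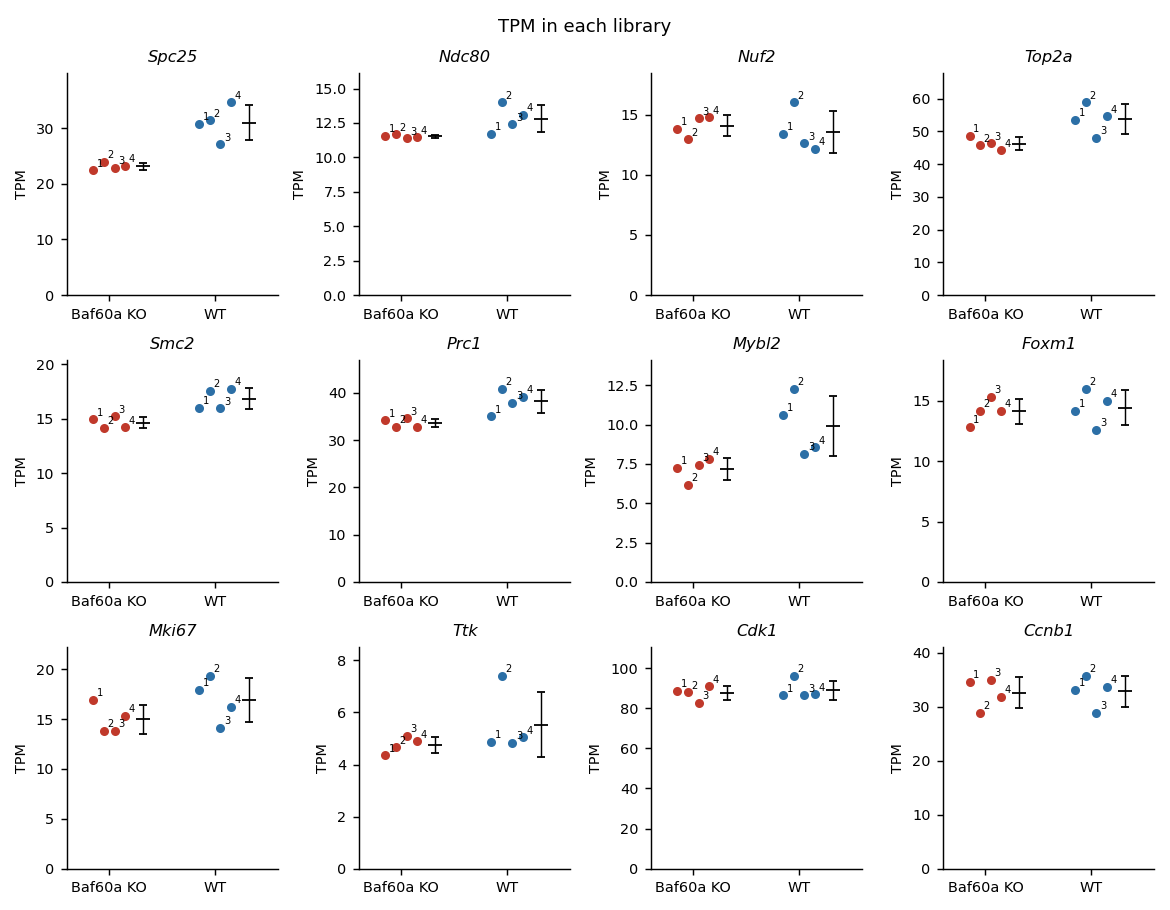
TPM in each library for 12 of the 48 genes, with Baf60a KO replicates 1 to 4 in red at the left and WT replicates 1 to 4 in blue at the right of each panel, and the mean ± SD (n = 4) as a black bar. The KO libraries of Spc25 sit between 22.43 and 24.02 TPM below the WT libraries from 27.16 TPM upwards, whereas the groups of Cdk1, Ccnb1, Foxm1 and Nuf2 overlap and Ttk is high in WT replicate 2.

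Among spindle motors and microtubule-binding proteins 0 of 6 passed, and each had a log2 fold change below 0, between -0.19 and -0.07. Tpx2, which activates Aurora A on spindle microtubules, was at 32.43, 30.90, 33.91 and 32.45 TPM in KO and 35.64, 38.14, 33.85 and 36.63 TPM in WT. KO replicate 3 lay just above WT replicate 3, the single overlap, and the gene did not pass (log2 fold change -0.15, SE 0.050, limma adjusted p = 0.125). Kif2c, a microtubule depolymerase, averaged 10.2 ± 0.414 TPM in KO and 11.8 ± 1.30 TPM in WT, with every KO library below every WT library. Kif4, a chromosome-bound motor, was at 7.30, 7.50, 7.19 and 7.33 TPM in KO and 8.72, 9.72, 6.54 and 7.02 TPM in WT. Its WT replicates 1 and 2 were above all KO libraries and replicates 3 and 4 were below them. Kif11, the motor that separates the spindle poles, averaged 8.58 ± 0.263 TPM in KO and 9.69 ± 1.02 TPM in WT. Nusap1, which bundles spindle microtubules, averaged 10.3 ± 0.790 TPM in KO and 11.01 ± 1.21 TPM in WT, and Hmmr, a spindle and hyaluronan-binding protein, 12.2 ± 0.295 TPM in KO and 12.8 ± 0.328 TPM in WT.

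The 4 genes of anaphase onset were not called. Ube2c, the ubiquitin-conjugating enzyme of the APC/C, was at 57.66, 59.87, 63.49 and 60.91 TPM in KO and 61.36, 66.10, 61.98 and 60.73 TPM in WT. Espl1, separase, which cuts cohesin, was at 4.53, 6.60, 6.44 and 5.29 TPM in KO and 6.68, 7.33, 6.05 and 9.03 TPM in WT, a wide spread in both groups (log2 fold change -0.30, interval -0.61 to 0.01). The APC/C activator Cdc20 averaged 33.7 ± 1.47 TPM in KO and 37.3 ± 3.29 TPM in WT, and Pttg1, securin, the inhibitor of separase, 43.6 ± 3.98 TPM in KO and 42.6 ± 2.90 TPM in WT. All 4 overlapped between the groups.

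Of the 7 genes of the central spindle and cytokinesis, 0 passed, with a median log2 fold change of -0.17. Prc1, which bundles the antiparallel microtubules of the central spindle, was at 34.19, 32.80, 34.61 and 32.84 TPM in KO, against 35.00, 40.79, 37.84 and 39.16 TPM in WT. All KO libraries were below all WT libraries, with WT replicate 1 close to them (log2 fold change -0.18, SE 0.053, limma adjusted p = 0.0915, and 0.0443 without WT replicate 1). Prc1 shares 911 exon bases with Rccd1 on the opposite strand, which reached 13.14 TPM. Whether the libraries kept strand is not given in the sources used here. Kif20b was the least abundant of the group, at 7.56, 7.17, 8.40 and 7.36 TPM in KO and 8.33, 9.69, 7.85 and 9.09 TPM in WT. Anln, anillin, the scaffold of the contractile ring, averaged 26.6 ± 1.99 TPM in KO and 30.6 ± 5.53 TPM in WT. The kinesin Kif23 of the centralspindlin complex averaged 16.5 ± 1.30 TPM in KO and 19.0 ± 2.52 TPM in WT. Its partner Racgap1 averaged 30.3 ± 1.85 TPM in KO and 29.9 ± 2.29 TPM in WT. Ect2, which activates RhoA at the cleavage site, averaged 9.28 ± 0.473 TPM in KO and 10.1 ± 1.18 TPM in WT, and the motor Kif20a 19.3 ± 0.892 TPM in KO and 20.4 ± 2.66 TPM in WT.

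Chromosome structure genes had the lowest median of the groups with more than 2 genes. All 6 had a log2 fold change below 0, against 42.5% of all genes tested, with a median of -0.18. At an unadjusted p under 0.05, 5 of them were lower, against 6.42% of all genes tested, and 0 passed the adjusted threshold. Their summed level was 144.5 ± 4.58 TPM in KO, from 140.2 to 149.0 TPM, and 165.4 ± 12.5 TPM in WT, from 149.6 to 179.9 TPM. Top2a, topoisomerase II alpha, which untangles sister chromatids, was at 48.72, 45.80, 46.42 and 44.21 TPM in KO, against 53.48, 58.95, 48.11 and 54.63 TPM in WT. KO replicate 1 lay above WT replicate 3, so the groups overlapped, and the gene did not pass (log2 fold change -0.21, SE 0.064, limma adjusted p = 0.0934). It was called under median-of-ratios scaling (adjusted p = 0.0292), after rescaling over protein-coding genes (0.0482) and without WT replicate 3 (0.0382).

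Condensin compacts mitotic chromosomes. Its subunits among the members, Smc2, Smc4, Ncapd2 and Ncapg, were lower in mean in KO without being called. This did not extend to every condensin subunit. Of those in the list of other mitosis genes, Ncapd3 was slightly higher in mean in KO (log2 fold change 0.04). Ncaph (-0.01) and Ncaph2 (-0.02) were close to level, Ncapg2 was lower (-0.18), and none of these passed. Smc2, an ATPase of both condensin complexes, was at 14.93, 14.18, 15.21 and 14.20 TPM in KO, against 16.01, 17.58, 15.95 and 17.73 TPM in WT, with no overlap (log2 fold change -0.19, SE 0.055, limma adjusted p = 0.0851). Smc2 was called under median-of-ratios scaling (adjusted p = 0.0384) and quantile normalization (0.0476). The other ATPase, Smc4, averaged 39.1 ± 1.70 TPM in KO and 43.1 ± 2.60 TPM in WT. The ratio of Smc4 to Smc2 TPM was 2.57 to 2.81 in KO and 2.40 to 2.82 in WT. Ncapd2 averaged 20.4 ± 1.68 TPM in KO and 24.5 ± 2.72 TPM in WT (log2 fold change -0.25, limma adjusted p = 0.136). Ncapg, the least abundant of the chromosome structure genes, was at 8.91, 8.54, 9.64 and 9.32 TPM in KO and 9.46, 11.40, 9.69 and 10.78 TPM in WT. Mki67, the Ki-67 protein that coats mitotic chromosomes and marks cycling cells, was at 16.92, 13.83, 13.81 and 15.32 TPM in KO, against 17.94, 19.33, 14.14 and 16.23 TPM in WT. Its groups overlapped (log2 fold change -0.16, interval -0.39 to 0.07, limma adjusted p = 0.401). A pseudogene that matches a short stretch of Mki67 was listed at up to 36.57 TPM, which makes the level of Mki67 uncertain. In bulk samples, fewer cycling cells and less of these transcripts per cell cannot be told apart.

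The genes varied together across libraries. Over the 8 libraries the median Pearson correlation of the 1128 pairs of members, on log2(TPM + 1), was 0.55, and 89.9% of pairs were above 0. Within WT alone it was 0.69 and within KO alone 0.20, each over 4 libraries. These are descriptions, since all pairs share the same libraries and the same scaling, and WT replicate 2 weighs on the WT value. Correlations were not computed for pairs of other genes, so these values do not set the 48 genes apart. The highest pairs were Kif20b with Ncapd2 (r = 0.99), Kif11 with Kif2c (0.98) and Ncapd2 with Ncapg (0.98), and the lowest were Birc5 with Bub3 (-0.65), Bub3 with Spc25 (-0.61) and Cdk1 with Pttg1 (-0.57). The spread between libraries was larger in WT than in KO for 40 of the 48 genes (83.3%), against 70.3% of all genes tested. The median SD on the log2 scale was 0.070 in KO and 0.12 in WT for the 48 genes, and 0.088 in KO and 0.12 in WT for all genes tested.

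Members with and without the promoter elements are set side by side here, and the difference between them was not tested. The median log2 fold change was -0.13 in the 32 members with a CHR match and -0.07 in the 8 without. Single values ran from -0.40 to 0.05 in both, and among the 8 these ends were Mybl2 and Nuf2. With and without CCAAT the median was -0.12 in 30 members and -0.14 in 10. Spc25, with both elements, and Mybl2, with neither, had the same log2 fold change of -0.40. Of the 48 genes, 9 lie on chromosome 2 (18.8%), which holds 7.95% of all genes tested, and Spc25 and Mybl2 are among them. The others there had smaller log2 fold changes: Tpx2 (-0.15), Aurka (-0.11), Bub1 (-0.11), Nusap1 (-0.08), Bub1b (-0.06), Ube2c (-0.05) and Cdc25b (-0.01).

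Genes around the 48 in the same pathways gave further counts, with the background shares as above. Of 81 other mitosis genes 1 fell, 0 rose and 80 did not pass. The median log2 fold change was -0.11 and 70 (86.4%) were below 0. The 1 call was Cit, citron kinase of the cleavage furrow, at 4.33, 5.11, 3.83 and 3.82 TPM in KO, against 6.01, 6.42, 5.30 and 6.08 TPM in WT (log2 fold change -0.40, limma adjusted p = 0.0450). The call of Cit held in 2 of the 8 fits that left out 1 library, with adjusted p up to 0.124. Of 53 S phase and replication genes, 1 rose, 1 fell and 51 did not pass, with a median of -0.09 and 41 (77.4%) below 0. Pcna, the sliding clamp of replication, rose (464 ± 20.0 TPM in KO, 387 ± 28.2 TPM in WT, log2 fold change 0.26), and Pole, the leading-strand polymerase, fell (3.66 ± 0.312 TPM in KO, 4.76 ± 0.241 TPM in WT, log2 fold change -0.31, limma adjusted p = 0.0487). The Pole call ended in all 8 fits that left out 1 library, and adjusted p for Pcna reached 0.0996 in them. The summed level of the 48 genes over that of the S phase genes was 0.751 to 0.806 in KO and 0.812 to 0.862 in WT. With Pcna left out of the S phase sum these ratios were 1.129 to 1.173 in KO and 1.129 to 1.178 in WT.

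Among other regulators of the cycle 1 gene passed the test. Of 16 subunits and enzymes of the APC/C, 0 passed, with a median log2 fold change of 0.02; Ube2s, the most abundant, was at 225 ± 5.69 TPM in KO and 225 ± 25.2 TPM in WT. Of 13 cohesin genes, which hold sister chromatids together, 0 passed (median -0.01), with Pds5a at 43.0 ± 1.72 TPM in KO and 43.5 ± 1.84 TPM in WT. Of 21 DREAM, E2F and NF-Y factors 0 passed (median -0.01), with Nfya at 69.0 ± 1.97 TPM in KO and 71.6 ± 6.55 TPM in WT. Ccnd3, cyclin D3 of the G1 phase, was the 1 of 6 G1 cyclins and kinases that rose (57.1 ± 4.33 TPM in KO, 46.3 ± 3.20 TPM in WT, log2 fold change 0.30, limma adjusted p = 0.0415, up to 0.111 with 1 library left out). Of 7 CDK inhibitors 0 passed (median 0.08), and they summed to 632 to 745 TPM in KO and 714 to 905 TPM in WT. The log2 fold change was above 0 for 5 of the 7, and the largest difference in level was in Cdkn1c, p57, named after its values were seen (260.2 TPM in KO, 370.9 TPM in WT, log2 fold change -0.52, limma adjusted p = 0.0882). Cdkn1a, p21, was at 303 ± 11.9 TPM in KO and 329 ± 27.4 TPM in WT (SD, n = 4 each).

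**Figure D5:**
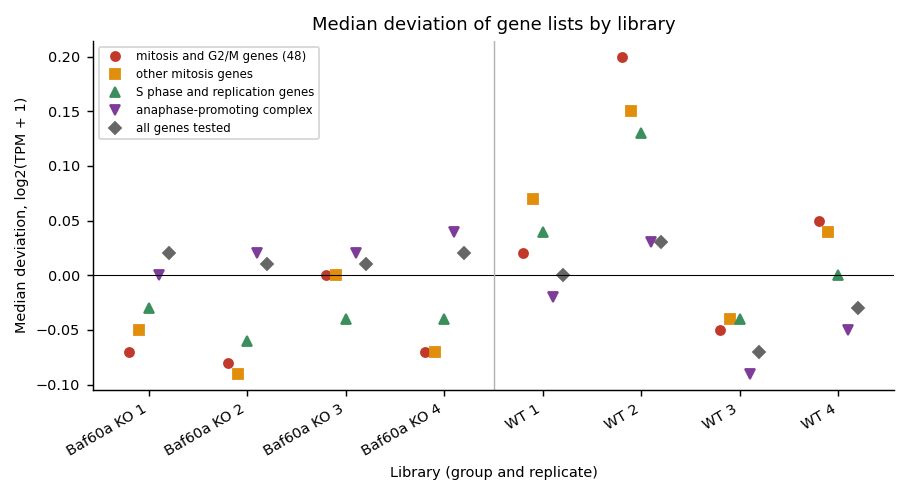
Median over each gene list of the deviation from the gene mean over 8 libraries, on the log2(TPM + 1) scale (y axis), in Baf60a KO replicates 1 to 4 and WT replicates 1 to 4 (x axis). The 48 mitosis and G2/M genes, the other mitosis genes and the S phase genes reach 0.20, 0.15 and 0.13 in WT replicate 2, where all genes tested are at 0.03, and lie at or below 0 in the 4 KO libraries.

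Markers of other cells that the cultures could hold moved with the groups in some lists. Of 12 stromal markers tested, 6 rose in KO and 0 fell, where 4.40% of all genes tested rose and 1.21% fell. The markers that rose included Thy1 (log2 fold change 1.06), Cnn1 (0.96) and Acta2 (0.45). Pdgfra (0.06), Col6a1 (0.03), Col6a2 (0.08) and Dcn (-0.43) were among those that did not pass. The 13 stromal markers summed to 7011 to 7328 TPM in KO and 5773 to 6263 TPM in WT, and none was at 0. Of 14 macrophage markers tested, 6 rose and 1 fell, and the 15 in the list summed to 6148 to 6518 TPM in KO and 7156 to 8283 TPM in WT, and the difference in Lyz2 alone was larger than that between the mean sums. C1qb was at 922.5 ± 31.6 TPM in KO and 722.7 ± 49.1 TPM in WT. The 14 progenitor and granulocyte markers summed to 157 to 250 TPM in KO and 205 to 299 TPM in WT, with 0 of 8 tested called and S100a9 at 116 ± 20.8 TPM in KO and 133 ± 24.6 TPM in WT. The 12 erythroid and megakaryocyte markers summed to 1016 to 1429 TPM in KO and 1412 to 2216 TPM in WT. Pf4, which macrophages can also express, made up nearly all of this sum (1279 ± 185 TPM in KO, 1822 ± 315 TPM in WT), and 0 of 6 tested were called. Lymphocyte markers summed to 2.37 to 3.31 TPM in KO and 2.42 to 4.12 TPM in WT, with the 1 tested, Cd79b, not called. Dendritic cell markers summed to 1.76 to 2.59 TPM in KO and 1.98 to 2.42 TPM in WT, with the 1 tested, Zbtb46, not called. Stromal and progenitor cells can also divide, and the part of any of these cells in the values of the 48 genes was not tested.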

How the data were processed

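RNA-seq was measured in 4 Baf60a KO and 4 WT libraries of mouse BMDMs. Groups and replicate numbers come from the sample titles. The authors deposited TPM, 1 value per gene and library; the unit follows from the equal column sums, since the header states none. The submitters' processing notes name Salmon 1.2.0, bcl2fastq and mm10; the sources used here do not give the annotation. TPM keeps no depth, and a large change in some transcripts moves all others.

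Ensembl identifiers were matched to GENCODE M21 symbols (55154 of 55421 rows). Genes over TPM 1 in at least 4 libraries (13933) were compared on log2(TPM + 1), a scale that understates changes of low genes, with limma 3.58.1 in R 4.3.3, a mean-variance trend, a group term alone and p-values adjusted by Benjamini and Hochberg over the 13933. Fold changes are Baf60a KO minus WT. The fit was tested on simulated data. Similar transcripts were sought with BLAST 2.17.0. Promoter windows are RefSeq's, 1 per gene.

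The members and lists were chosen with earlier results of these data known. All 48 members are named; values per library are given for those called, the 3 lowest adjusted p-values in each direction, the most and least abundant of each role, and Mki67, Top2a, Ccnb1 and Cdk1. Other lists give up to 3 called genes, or the most abundant. Alternatives covered the pseudocount, filter, variance model, scaling, replicate block and left-out libraries.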

Additional observations from a re-analysis of the deposited data

Results flagged for a closer look

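In each group of 4 libraries the highest or lowest value of a member was marked where its gap to the next library passed Dixon's 95% critical value. Of 96 such groups 4 were marked, and chance marks about 1 in 20. Cdk1 was at 96.1 TPM in WT replicate 2, against 86.35 to 86.88 TPM in the other WT libraries. Ttk was at 7.40 TPM in WT replicate 2, against 4.83 to 5.04 TPM in the others, and Cdc25c at 6.13 TPM in WT replicate 2, against 5.77 to 5.83 TPM. Plk1 was at 19.94 TPM in Baf60a KO replicate 1, against 21.0 to 21.2 TPM in the other KO libraries.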

How the results depend on the processing

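Over 19 alternatives, 37 of the 48 members kept the sign of their log2 fold change, and 11 members changed it under at least 1. By median-of-ratios scaling Cenpa was at -0.0069, Pttg1 at -0.0067 and Racgap1 at -0.0189; Racgap1 was at -0.011 by quantile normalization and -0.008 over protein-coding genes. Without WT replicates 3 and 4, Racgap1 was at -0.0433 and Nuf2 at -0.0594. With 1 library left out, the ranges were -0.0686 to 0.0447 for Ccnb1, -0.0051 to 0.068 for Ccnb2, -0.0388 to 0.0165 for Cdk1, -0.0787 to 0.0275 for Cdc25b, -0.0859 to 0.0216 for Foxm1, -0.0323 to 0.0392 for Plk1, -0.0012 to 0.0724 for Cenpa, -0.0141 to 0.091 for Pttg1, -0.1292 to 0.0114 for Kif20a and -0.014 to 0.0669 for Racgap1.

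The number of members called was 1 by the main comparison, 5 by median-of-ratios scaling, 2 by quantile normalization, 2 after the protein-coding rescaling, and 2 (Spc25 and Mybl2) when WT replicates 3 and 4 were left out. With 1 library left out it was 0 to 2. Over all genes the count of 782 became 364 with no filter on low values, 372 without WT replicates 3 and 4, and 156 to 679 with 1 library left out. Fits with fewer libraries have less power; the cause of the other shifts was not tested. Smarcd1 was called in every alternative.

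Deviations of same-numbered KO and WT libraries correlated between -0.113 and 0.012, and those of differently numbered libraries between -0.133 and 0.107. The sources used here do not say whether same-numbered libraries share an origin, and these correlations cannot show it. With the replicate block 209 genes and 0 members were called. The members' median log2 fold change was between -0.17 and -0.06 over the 19 alternatives. No depth is known, so no counting error can be given.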

Other observations

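Some members have near-identical copies in the annotation. Ccnb1-ps, a processed pseudogene 99.2% identical to Ccnb1 over 1287 bases, was listed at 1.79 to 2.74 TPM in Baf60a KO and 1.55 to 3.97 TPM in WT, and Gm12856, 98.1% identical over 1294 bases, at 1.87 to 2.32 TPM in KO and 1.29 to 3.64 TPM in WT. Gm44521, a processed pseudogene that matches Mki67 over 216 bases at 98.6% identity, was at 17.83, 2.29, 4.79 and 15.54 TPM in KO and 21.76, 36.57, 30.22 and 11.14 TPM in WT, in some libraries above Mki67 itself. An unprocessed pseudogene, 2700099C18Rik, matches Ndc80 over 303 bases at 95.05% and was at 6.13 to 8.06 TPM in KO and 8.26 to 10.48 TPM in WT, with no overlap between the groups. How reads were shared between these copies was not tested.

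Several members share exon bases with a gene on the opposite strand. Kif20a shares 1271 bases with Cdc23, Ncapg 944 with Lcorl, Kif4 832 with Pdzd11, Ube2c 592 with Tnnc2 and Ccna2 510 with Exosc9. Of these partners Pdzd11 reached 52.52 TPM, Exosc9 36.56 and Cdc23 35.13, above the levels of Kif4, Ccna2 and Kif20a.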
